A study of Mus musculus with 10 samples.

Results

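Granulocyte-monocyte progenitors (GMP) and megakaryocyte-erythroid progenitors (MEP) without Runx1 were compared by RNA-seq, to ask which differences between the 2 lineages remain when this factor is absent. The comparison used 4 of the 10 libraries of the series, 2 of Runx1-deleted GMP and 2 of Runx1-deleted MEP, taken by the genotype and cell type of their labels. Both groups came from the bone marrow of Runx1fl/fl-Tg(vav-Cre) mice, labelled Runx1Δ/Δ. GMP and MEP of Runx1+/+-Tg(vav-Cre) mice, with 2 libraries each, served as the wild-type reference, so every group carried the vav-Cre transgene. The vav elements drive Cre recombinase throughout the blood system, so that both lineages come from ancestors in which the floxed gene could already be cut. Every sort took cells that were lin-, sca-, kit+, CD41- and CD105-, and within them CD16/32+ CD150- cells as GMP or CD16/32- CD150+ cells as MEP. The labels give no age, sex or number of mice per library and no deletion efficiency, and nothing says that the libraries of a group are separate animals. The p-values below therefore measure only the spread between libraries.

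Runx1 is the DNA-binding subunit of core-binding factor and works with its partner Cbfb. It is known in the marrow for its part in the emergence of blood stem cells, in megakaryocyte maturation and in the control of myeloid genes. GMP give rise to neutrophils, monocytes and related cells under factors such as PU.1 (Sfpi1) and C/EBP alpha (Cebpa). MEP give rise to red cells and platelets under Gata1, Klf1 and their partners.

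The markers of both lineages separated the Runx1-deleted groups. Mpo, which encodes the peroxidase of neutrophil granules, stood at 3743 and 4546 RPKM (reads per kilobase of gene, scaled to the reads of the library) in the GMP libraries and at 8.73 and 6.42 in the MEP libraries. Klf1, the erythroid zinc-finger factor, stood at 1.60 and 2.62 RPKM in GMP and at 153 and 112 in MEP. Gp5, a subunit of the platelet receptor for von Willebrand factor, stood at 10.3 and 12.5 RPKM in GMP and at 89.9 and 78.6 in MEP. The GMP and MEP libraries did not overlap for any of these genes (nor for 67.6% of all tested genes), and the labels and the markers gave the same assignment. Slamf1 encodes CD150, on which the gates were set, and stood at 0.962 and 1.38 RPKM in GMP and at 24.7 and 29.9 in MEP.

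The start regions of these 4 genes are shown because they mark the lineages compared. Each runs from 250 bases before to 50 bases after the gene start in RefSeq (GRCm38.p6, whereas the expression values rest on mm9), 5′ to 3′ on the strand of the gene. Capitals mark matches to AGATAA or TGATAA (the core bound by GATA factors) and to TGTGGT or TGCGGT (the core bound by RUNX factors), on either strand. TTGCNNAA, the C/EBP core, was searched in the same way.
Mpo, chr11:87793534-87793833, plus strand: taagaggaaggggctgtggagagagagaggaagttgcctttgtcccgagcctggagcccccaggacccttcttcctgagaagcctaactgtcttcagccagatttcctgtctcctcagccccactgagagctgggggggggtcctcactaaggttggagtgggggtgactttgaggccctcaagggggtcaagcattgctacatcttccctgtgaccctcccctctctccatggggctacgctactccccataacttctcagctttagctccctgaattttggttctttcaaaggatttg
Klf1, chr8:84901732-84902031, plus strand: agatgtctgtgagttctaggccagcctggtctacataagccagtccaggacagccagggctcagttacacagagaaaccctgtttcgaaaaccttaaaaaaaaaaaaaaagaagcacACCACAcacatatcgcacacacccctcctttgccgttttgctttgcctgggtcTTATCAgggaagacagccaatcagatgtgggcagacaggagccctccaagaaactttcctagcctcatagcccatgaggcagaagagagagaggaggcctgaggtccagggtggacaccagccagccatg
Gp5, chr16:30310732-30311031, minus strand: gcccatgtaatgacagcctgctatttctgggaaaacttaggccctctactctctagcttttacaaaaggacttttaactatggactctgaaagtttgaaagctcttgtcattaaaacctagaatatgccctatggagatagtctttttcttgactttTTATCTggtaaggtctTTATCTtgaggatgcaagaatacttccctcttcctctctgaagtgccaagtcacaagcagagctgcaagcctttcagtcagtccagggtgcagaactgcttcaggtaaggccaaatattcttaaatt
Slamf1, chr1:171766882-171767181, plus strand: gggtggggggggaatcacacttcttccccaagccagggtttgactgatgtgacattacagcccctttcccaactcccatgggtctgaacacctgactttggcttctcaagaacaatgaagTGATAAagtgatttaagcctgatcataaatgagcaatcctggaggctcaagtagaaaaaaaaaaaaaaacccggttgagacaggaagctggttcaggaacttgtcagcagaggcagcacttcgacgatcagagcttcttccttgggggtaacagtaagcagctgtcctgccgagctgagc
Klf1 held a GATA match beginning 80 bases before the gene start and a RUNX match beginning 133 bases before it. Gp5 held GATA matches beginning 93 and 77 bases before the start, and Slamf1 one beginning 130 bases before it. The Mpo window held none of the searched motifs, which says no more than that these letters are not in it. Of all 32851 windows of the RefSeq table, 18.6% held a GATA match, 22.4% a RUNX match and 10.8% a C/EBP match. Of the 10784 windows of tested genes, the shares were 10.4%, 21.1% and 8.4%. A match is a string of letters and not a bound site.

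The 4 libraries held 37.3 to 54.9 M reads. For a 1 kb gene, a single read equalled 0.0182 to 0.0268 RPKM. Log2(RPKM + 1) correlated across genes at 0.994 between the GMP libraries and at 0.986 between the MEP libraries, against 0.865 to 0.875 between the groups. The median gene differed by 0.11 on the log2 scale between the GMP libraries and by 0.20 between the MEP libraries. All 4 libraries were run on lane 5. Of the wild-type libraries, GMP came from lanes 3 and 2 and MEP from lanes 3 and 5, so for GMP genotype and lane cannot be told apart.

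Across the transcriptome, 3344 of 10477 tested genes (31.9%) differed between Runx1-deleted GMP and MEP at an adjusted p under 0.05 (limma on log2(RPKM + 1), Benjamini-Hochberg over all genes tested). Of these, 1811 (17.3% of the tested genes) were higher in GMP and 1533 (14.6%) were lower. The balance turned with quantile normalization (1831 higher and 1913 lower) and without MEP library 2 (1965 and 2352). The median gene lay at -0.05 on these values, which are already scaled to the reads of each library. Among the called genes, 313 were at least 4-fold higher and 182 at least 4-fold lower in GMP, and 20 and 10 were at least 32-fold higher and lower. The count fell to 2187 without GMP library 1 and to 2227 without GMP library 2, and rose to 4027 and 4317 without MEP libraries 1 and 2. A fold on this scale understates the change of genes near 1 RPKM. In bulk libraries, fewer cells of a type and less RNA per cell cannot be told apart.

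Runx1 itself was detected at 63.0 and 72.3 RPKM in Runx1-deleted GMP and at 41.5 and 36.8 in Runx1-deleted MEP. These values lay above those of wild type, at 28.54 and 26.85 RPKM in GMP and at 17.2 and 25.53 in MEP. A value summed over the gene does not check the deletion of a floxed exon, since the rest of the transcript can still be counted. The difference between the Runx1-deleted lineages was 0.77 on the log2(RPKM + 1) scale (limma, adjusted p = 0.00778), and it was not called without GMP library 2 (adjusted p = 0.125). Its partner Cbfb was higher in GMP by 0.69 (adjusted p = 0.00919), a call that was lost without either GMP library (adjusted p = 0.0793 and 0.135). Of the related genes, Runx2 stood at 18.9 and 20.0 RPKM in GMP and at 4.05 and 4.9 in MEP, higher in GMP by 1.91 (adjusted p = 6.36e-05). Runx3 stood at 35.9 and 41.7 in GMP and at 45.3 and 45.0 in MEP (log2 difference -0.22, adjusted p = 0.313). Of 17 tested RUNX genes and partners, 4 were higher in GMP, 1 was lower and 12 were not called. The 4 fell to 2 without GMP library 1 and to 1 without GMP library 2.

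Transcripts of CD16/32 and CD150, the antigens that set the gates apart, followed the gates, as the sort itself sets. Transcripts of antigens that both gates exclude were still read. Fcgr3, 1 of the genes of CD16/32, stood at 58.1 and 61.3 RPKM in GMP and at 0.752 and 0.576 in MEP. Itga2b, the gene of CD41, was present at 84.4 and 71.6 RPKM in GMP and at 218 and 203 in MEP, although both gates were CD41-. Kit, on which both gates were positive, stood at 96.2 and 95.2 in GMP and at 110 and 138 in MEP and was not called (log2 difference -0.36, adjusted p = 0.144). Eng, the gene of CD105, was not called either (0.12, adjusted p = 0.661). It stood at 31.5 and 43.2 RPKM in GMP and at 36.5 and 31.2 in MEP, although both gates were CD105-.

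**Figure D1:**
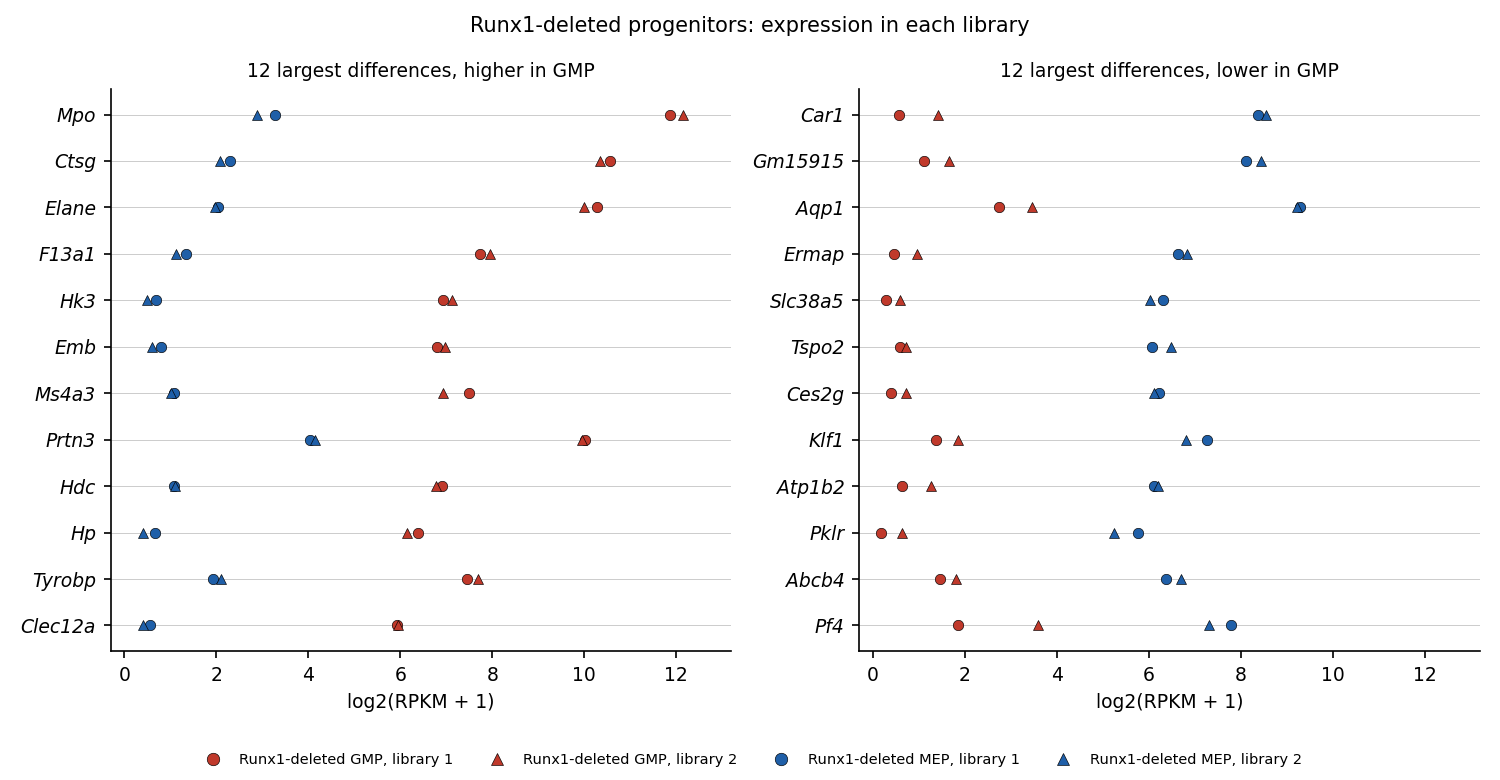
Expression, as log2(RPKM + 1) on the x axis, of the 12 genes with the largest differences in each direction (rows) in the 2 Runx1-deleted GMP libraries (red) and the 2 Runx1-deleted MEP libraries (blue), circles for library 1 and triangles for library 2. The groups are far apart in every row, and the GMP libraries differ from each other most visibly for Pf4, at 2.63 and 11.1 RPKM.

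The genes furthest on the GMP side were those of primary granules, the vesicles that carry proteases and peroxidase in neutrophil precursors. Mpo led with a difference of 8.92 (SE 0.19, adjusted p = 1.5e-06). Ctsg, which encodes cathepsin G, stood at 1502 and 1292 RPKM in GMP and at 3.93 and 3.25 in MEP, a difference of 8.25. Elane, neutrophil elastase, stood at 1237 and 1023 against 3.08 and 2.93, a difference of 8.13. Prtn3, proteinase 3, kept a level of 15.3 and 16.6 RPKM in MEP beside 1038 and 996 in GMP. Of 29 tested granule and neutrophil genes, 26 were higher in GMP, Itgb2 was lower and 2 were not called, with a median of 3.07 beside -0.05 for all genes. Itgb2, a leukocyte integrin chain, lay at -0.58, and its call was lost without either GMP library (adjusted p = 0.222 and 0.156). Among genes of later neutrophil granules, Camp was at most 1.23 RPKM, Ngp at most 1.20 and Mmp8 at most 0.477, and none of these passed the filter on low values. Lcn2, lipocalin 2 of such granules, stood at 13 and 7.98 RPKM in GMP and at 1.41 and 1.05 in MEP, higher in GMP by 2.33 (adjusted p = 0.000223).

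Genes of monocytes, macrophages and dendritic cells were on the same side. F13a1, the transglutaminase chain of coagulation factor XIII, stood at 211 and 246 RPKM in GMP and at 1.53 and 1.19 in MEP, a difference of 6.61. Clec12a, an inhibitory lectin receptor of myeloid cells, stood at 59.8 and 61.2 against 0.470 and 0.330, and Csf1r, the receptor of macrophage colony-stimulating factor, at 37.5 and 50.2 against 0.795 and 0.451. In this list of 25 tested genes, the GMP side held 24 and the MEP side 1, with a median of 2.74. The exception was Zbtb46, a zinc-finger factor of classical dendritic cells, at 0.202 and 0.182 RPKM in GMP and at 2.34 and 1.55 in MEP.

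The transcription factors of the myeloid branch were present in GMP without Runx1. Cebpa stood at 43.7 and 49.1 RPKM in GMP and at 0.842 and 0.859 in MEP, a difference of 4.68 (adjusted p = 2.3e-06). Cebpe, which acts in granulocyte maturation, differed by 5.37, Irf8, which acts in monocyte fate, by 5.02, and Gfi1, a repressor of the granulocyte branch, by 4.71. Sfpi1, which encodes PU.1, was also read in MEP, at 12.4 and 13.7 RPKM beside 107 and 146 in GMP. Of 20 tested factors, 14 were higher in GMP and 5 were not called, among them Myb at 202 and 191 RPKM in GMP and at 198 and 230 in MEP. The 1 lower factor (2 without MEP library 1) was Egr1, at 0.243 and 0.282 RPKM in GMP and at 1.33 and 2.35 in MEP.

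Of 23 tested myeloid cytokine and surface receptors, 20 were higher in GMP, none was lower and 3 were not called, with a median of 2.62. Without MEP library 1, 1 was lower. Csf2rb, the beta chain shared by the receptors of GM-CSF, IL-3 and IL-5, stood at 54.9 and 50 RPKM in GMP and at 4.64 and 5.31 in MEP. Flt3, a receptor of early progenitors, stood at 19.9 and 25.2 against 0.798 and 1.46. Cd34 stood at 209 and 223 against 20.5 and 17.9. The GMP libraries stood above both MEP libraries for each of these receptors, and Csf2rb differed by 3.16 on the log2 scale.

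The list of mast cell, basophil and eosinophil genes was divided. Of 20 tested members, 12 were higher in GMP, 4 were lower and 4 were not called, with a median of 1.66. Hdc, which makes histamine, stood at 120 and 108 RPKM in GMP and at 1.11 and 1.15 in MEP. Mcpt8, a protease of basophils, stood at 9.29 and 8.50 against 0.0638 and 0.113. Prss34, another basophil protease, was at most 0.434 RPKM in the 4 Runx1-deleted libraries and did not pass the filter. On the MEP side were Gata2, Lat, Il1rl1 and Ltc4s, of which Ltc4s lost its call without GMP library 2 (adjusted p = 0.281) or MEP library 1 (0.118). Gata2, a factor shared by mast cells and early progenitors, stood at 35.9 and 50.6 RPKM in GMP and at 101 and 120 in MEP.

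Among the transcription factors of the megakaryocyte-erythroid branch, those tied to the erythroid end differed most. Klf1 was lower in GMP by 5.42 on the log2 scale (SE 0.22, adjusted p = 6.58e-06). Gata1 stood at 7.94 and 11 RPKM in GMP and at 127 and 120 in MEP, a difference of -3.58. Gfi1b, a repressor of the same branch, stood at 8.48 and 15.5 against 118 and 118, and Tal1 at 17.0 and 19.2 against 68.9 and 67.5. Of 23 tested factors, 12 were lower in GMP, 10 were not called, and Erg was higher in GMP by 1.06. Without MEP library 2, 2 factors were higher. Megakaryocyte factors were among those not called: Fli1 stood at 8.11 and 7.42 RPKM in GMP and at 7.73 and 6.26 in MEP. Meis1, a homeobox factor of stem cells and megakaryocytes, stood at 29.4 and 30.9 in GMP and at 35.0 and 31.9 in MEP. The median of the list was -0.63 beside -1.28 in wild type.

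Early erythroid and red-cell membrane genes were almost uniformly lower in GMP. Car1, carbonic anhydrase 1, stood at 0.496 and 1.67 RPKM in GMP and at 334 and 375 in MEP, a difference of -7.47 (SE 0.26, adjusted p = 4.64e-06). Aqp1, the water channel of the red cell, stood at 5.71 and 10.02 against 624 and 601. Ermap, an erythroblast membrane protein, stood at 0.384 and 0.953 against 99.1 and 114, and Tspo2, an erythroid relative of the translocator protein, at 0.506 and 0.649 against 66.2 and 88.8. Of 30 tested members, 29 were lower in GMP and 1 was higher, with a median of -3.52 beside -2.50 in wild type. Epor, the erythropoietin receptor, stood at 0.219 and 0.296 RPKM in GMP and at 13.8 and 12.7 in MEP. The exception was Slc4a1, the anion exchanger band 3, at 2.07 and 1.82 RPKM in GMP and at 0.865 and 1.002 in MEP. Its difference of 0.61 was lost without GMP library 1 (adjusted p = 0.0526) and with quantile normalization (0.067).

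Heme synthesis split by enzyme. Alas1, the first enzyme in non-erythroid cells, stood at 29.2 and 28.6 RPKM in GMP and at 2.30 and 2.02 in MEP, a difference of 3.24 (adjusted p = 5.78e-06). The enzymes that follow were lower in GMP: Cpox stood at 8.92 and 11.6 against 128 and 97.8, Alad at 12.5 and 14.3 against 81.9 and 56.0, and Urod at 29.7 and 32.6 against 108 and 90.4. Fech, Uros and Ppox, and the mitochondrial transporter Abcb10, were called in the same direction, at -0.59 to -1.33, of which Ppox lost its call without either GMP library (adjusted p = 0.224 and 0.115). Alas2, the erythroid first enzyme, was low in both lineages, at 2.75 and 3.99 RPKM in GMP and at 1.73 and 1.70 in MEP. Its difference of 0.67 lost its call without GMP library 2 (adjusted p = 0.116). The globins were not called: Hba-a1 stood at 82.9 and 152 RPKM in GMP and at 64.8 and 57.4 in MEP, and Beta-s, a beta globin, at 229 and 376 against 222 and 191. The level of each globin paralog is uncertain, because near-identical copies (Hba-a1 with Hba-a2, Beta-s with Hbb-b1) take reads from one another. Of the 16 tested heme and globin genes, 2 were higher in GMP, 8 were lower and 6 were not called. The higher ones were 4 without GMP library 1 and 1 without GMP library 2.

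Platelet receptors were mostly lower in GMP. Treml1, a receptor of platelet granules, stood at 14.3 and 20.1 RPKM in GMP and at 129 and 121 in MEP, a difference of -2.81. Gp5 differed by -2.78 (SE 0.16, adjusted p = 2.39e-05), Gp1ba by -2.88 and Clec1b, the podoplanin receptor, by -3.05. Of 26 tested receptors, 20 were lower in GMP, 3 were higher and 3 were not called, with a median of -1.43. The 3 higher ones were Pecam1, at 40.6 and 37.9 RPKM in GMP and 14.2 and 14.5 in MEP, Selp and P2rx1. Pecam1 and Selp are also adhesion molecules of other blood and endothelial cells. P2rx1 differed by 0.45 and lost its call without either GMP library (adjusted p = 0.208 and 0.354).

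Platelet granule genes were divided, and some of them varied between the GMP libraries. Pf4, the chemokine platelet factor 4, stood at 2.63 and 11.1 RPKM in GMP and at 220 and 158 in MEP, a difference of -4.82 (SE 0.50, adjusted p = 0.000377). Vwf, von Willebrand factor, stood at 0.335 and 1.05 against 17.9 and 14.4. Ppbp, another platelet chemokine, stood at 1.30 and 10.6 against 57.2 and 42.5. GMP library 2 was thus the higher GMP library for these 3 genes, while both GMP libraries stayed below both MEP libraries. The same was read outside the platelet genes. All 12 genes named for the largest differences on the MEP side, Pf4 among them, were higher in GMP library 2 than in library 1. Car1 stood at 0.496 and 1.67 RPKM in these libraries, Ermap at 0.384 and 0.953 and Klf1 at 1.60 and 2.62. Itga2b, which is not among the 12, went the other way, at 84.4 and 71.6. The cause was not tested. Of 16 tested granule genes, 8 were lower in GMP, 4 were not called and 4 were higher. The higher ones were F13a1 and Anxa3, which monocytes or neutrophils also use, and Angpt1 and Proz, at 0.62 and 0.55. Angpt1 lost its call without either GMP library (adjusted p = 0.202 and 0.0829), and Proz likewise (0.06 and 0.0502).

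Cytoskeleton and signalling genes of platelets were the least separated of these lists, with a median of -0.35. Of 32 tested, 15 were lower in GMP, 7 were higher and 10 were not called. Alox12, the platelet lipoxygenase, stood at 0.396 and 2.15 RPKM in GMP and at 25.2 and 19.1 in MEP, a difference of -3.45. Myh10, a non-muscle myosin chain, stood at 0.136 and 0.220 against 14.8 and 6.98. Ptgs1, the cyclooxygenase upstream of thromboxane, went the other way, at 28.2 and 28.9 in GMP and 12.6 and 10.8 in MEP (1.22, adjusted p = 0.000556).

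**Figure D2:**
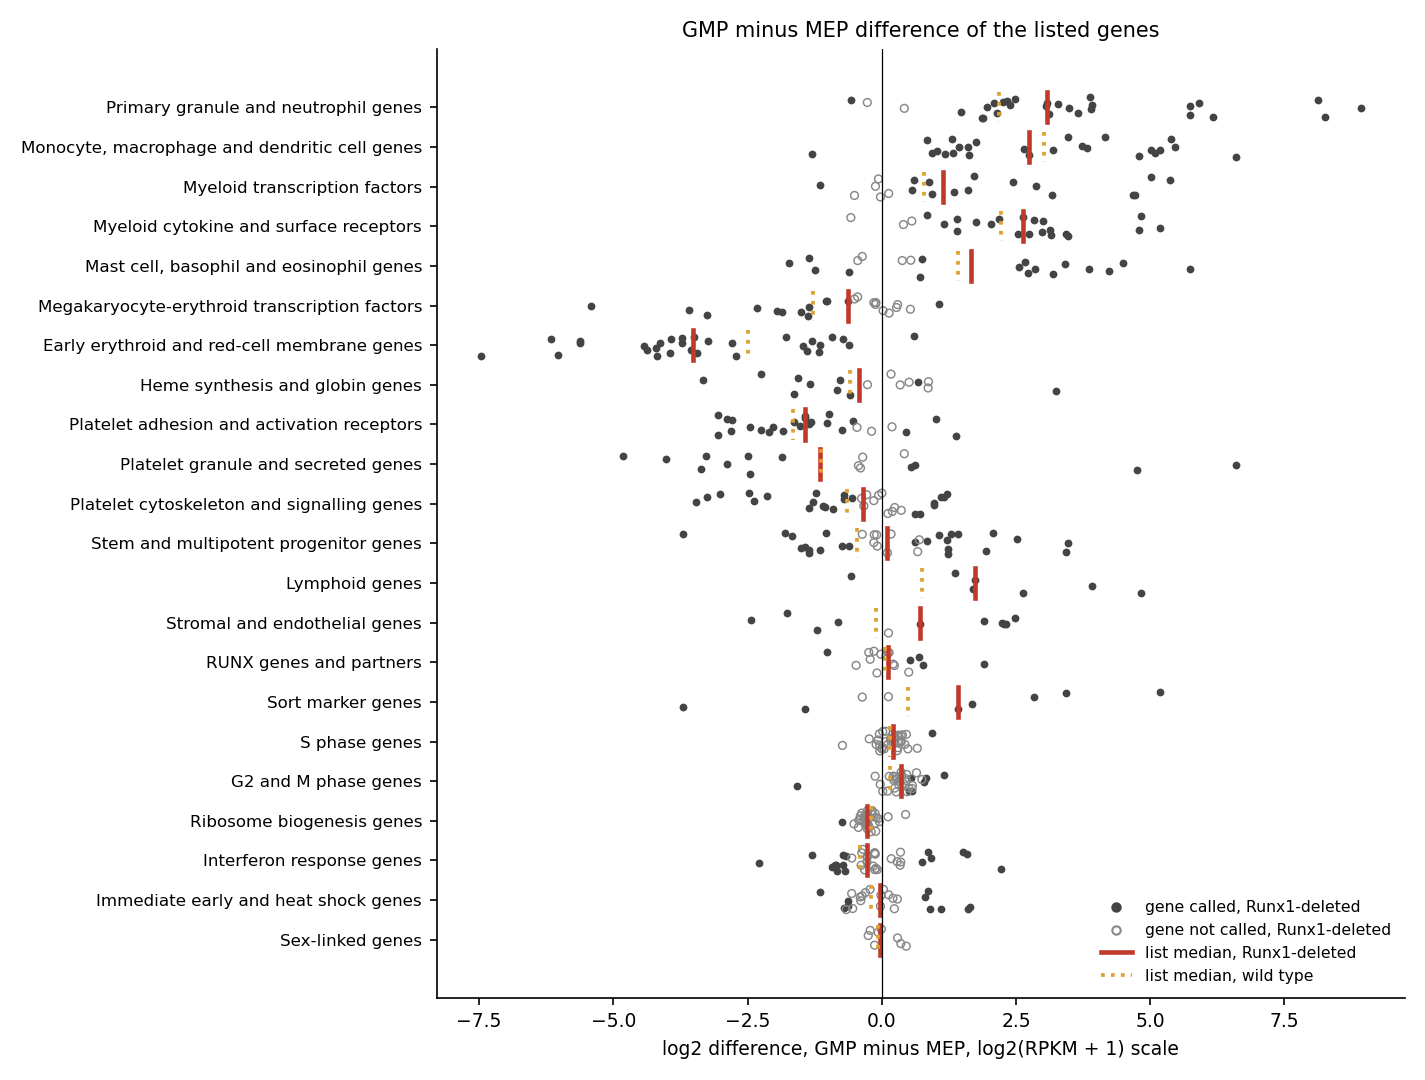
Log2 difference of GMP minus MEP on the log2(RPKM + 1) scale (x axis) for the tested genes of 22 lists (rows) in the Runx1-deleted libraries, filled where called, with the list median without Runx1 (red bar) and in wild type (dotted bar). Myeloid lists lie to the right, erythroid genes at a median of -3.52 to the left, and the cell cycle and ribosome lists around 0.

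Stem and multipotent progenitor genes were found on both sides. Of 33 tested, 13 were higher in GMP, 11 were lower and 9 were not called, with a median of 0.10 beside -0.45 in wild type. Cd27, a receptor of early progenitors, stood at 40.8 and 40.0 RPKM in GMP and at 7.05 and 5.47 in MEP, and Hmga2, a chromatin protein of fetal stem cells, at 11.6 and 15.2 against 2.36 and 2.48. On the MEP side, Mllt3, a component of elongation complexes, stood at 3.19 and 3.13 in GMP and at 12.7 and 14.3 in MEP. Ly6a, the gene of the sca antigen excluded by the gate, was read at 8.97 and 10.5 RPKM in GMP and at 3.85 and 2.31 in MEP.

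Markers of other cell types moved with the comparison in part. Cd3e (T cells) was at most 0.0254 RPKM in the 4 libraries and listed at 0 in MEP library 2, and Cd79a (B cells) at most 0.467. Of 31 lymphoid genes with values, 7 were tested, 6 were higher in GMP and 1 was lower (none without GMP library 1 or MEP library 1), and their summed level was 407 to 434 RPKM in GMP and 26.9 to 33.5 in MEP. Col1a1 (stroma) and Cdh5 (endothelium) were at most 0.0754 and 0.108 RPKM. The 25 stromal and endothelial genes summed to 337 and 419 RPKM in GMP and to 135 and 133 in MEP. Vim made up most of the sum in GMP, at 256 and 325 RPKM, but not in MEP, at 55.8 and 62.7. Of 11 tested genes of this list, 6 were higher in GMP and 4 were lower. The part of such cells in the differences was not tested.

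Genes of the cell cycle separated the lineages little. Of 35 tested S phase genes, 1 (Rrm2) was called, and of 33 G2 and M phase genes, 6 were higher in GMP and 1, Cdc25b, was lower. MEP library 2 was the lowest of the 4 for many of them: Rrm2 stood at 62.9 and 59.6 RPKM in GMP and at 44.0 and 22.3 in MEP. The call of Rrm2 was lost without either GMP library (adjusted p = 0.127 and 0.0935). Cdc25b, a phosphatase that activates cyclin-dependent kinases, stood at 9.57 and 10.5 in GMP and at 30.9 and 33.5 in MEP, a difference of -1.59. Of 31 ribosome biogenesis genes, 1, Rrp9, was lower in GMP, with a list median of -0.27. These counts rested on single libraries. Without MEP library 1, 22 S phase genes and 27 G2 and M phase genes were higher in GMP. Without MEP library 2, 7 S phase genes and 20 ribosome biogenesis genes were lower. The 6 higher G2 and M phase genes fell to 1 without GMP library 1 and to 2 without GMP library 2, and Rrp9 lost its call without either (adjusted p = 0.102 and 0.13).

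Interferon response genes divided without a common direction, with 6 of 37 higher in GMP, 11 lower (6 without GMP library 1) and 20 not called. Isg20, an exonuclease, stood at 7.56 and 8.86 RPKM in GMP and at 44.3 and 43.9 in MEP, and Irf7, a regulator of interferon genes, at 7.75 and 11.5 against 23.4 and 26.1. Gbp3, a guanylate-binding protein, stood at 21.3 and 21.5 in GMP and at 3.44 and 4.19 in MEP. Of 25 immediate early and heat shock genes, 6 were higher in GMP, 4 were lower and 15 were not called. The higher ones fell to 3 without GMP library 2, and the lower ones were 1 without GMP library 1 and 8 without MEP library 2. Fos, an immediate early factor, stood at 2.40 and 3.93 RPKM in GMP and at 0.294 and 0.339 in MEP. Hspa1b, an inducible heat shock protein, stood at 0.201 and 4.21 in GMP and at 7.35 and 0.143 in MEP, so that each group held 1 high and 1 low library. The high libraries carry the consecutive library numbers 27 and 28, and the low ones 32 and 33. Xist, transcribed from the inactive X chromosome, stood at 58.2 and 54.6 RPKM in libraries 27 and 28 and at 102 and 110 in libraries 32 and 33. Its antisense gene Tsix overlaps it, and no strand is stated for the counting. Y-linked Eif2s3y was read in all 4 libraries, at 4.97 and 3.52 against 9.61 and 7.57, so that transcripts of female and male cells were present in each library.

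Most strong lineage differences of wild-type cells were also found without Runx1. Between wild-type GMP and MEP, 1615 of 10783 tested genes (15%) were called, 974 higher in GMP (9.03%) and 641 lower (5.94%). Of these, 409 were called and at least 4-fold different, and 394 of the 409 (96.3%) had the same direction and a call without Runx1, beside 31.9% called among all genes tested there. The filter on low values left 397 of the 409 tested in the Runx1-deleted libraries, 396 of them with the same direction, and over these the share was 99.2%. The 12 others were too low without Runx1 to be tested, among them Prss34, Gzmb, Fcer1a and Lim2. For all 12 the difference was called smaller than in wild type by the test of both genotypes in 1 model. That call was largely fixed beforehand, since these genes were at least 4-fold different in wild type and under the filter without Runx1. Values near or under 1 RPKM leave little room for a difference on the log2(RPKM + 1) scale. With no filter the share was again 96.3% of 409. Of the 397 tested genes, 23 were called smaller and 7 larger in that model. No gene was called in the opposite direction. Among the tested genes, 263 of 265 on the GMP side and 131 of 132 on the MEP side held. For these the Runx1-deleted difference was a median 0.99 of the wild-type difference, with quartiles of 0.80 and 1.15. The share of tested genes was 97.7% without Runx1-deleted GMP library 1 and 93.2% for all wild-type differences of at least 2-fold. The wild-type and Runx1-deleted comparisons share no library.

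Read from the other side, the strong differences of Runx1-deleted cells were present in wild type in most cases. Of the 313 genes at least 4-fold higher in Runx1-deleted GMP, 293 were at least 2-fold higher in wild-type GMP and 20 lay under 2-fold there. Of the 182 at least 4-fold lower, 161 were at least 2-fold lower in wild type and 21 lay under 2-fold. None was 2-fold in the opposite direction. Over the 10477 genes, the differences of the genotypes correlated at r = 0.879 (Spearman 0.758), a description across genes that share libraries and are not replicates. Among 1363 genes called in both genotypes, 9 had opposite signs.

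**Figure D3:**
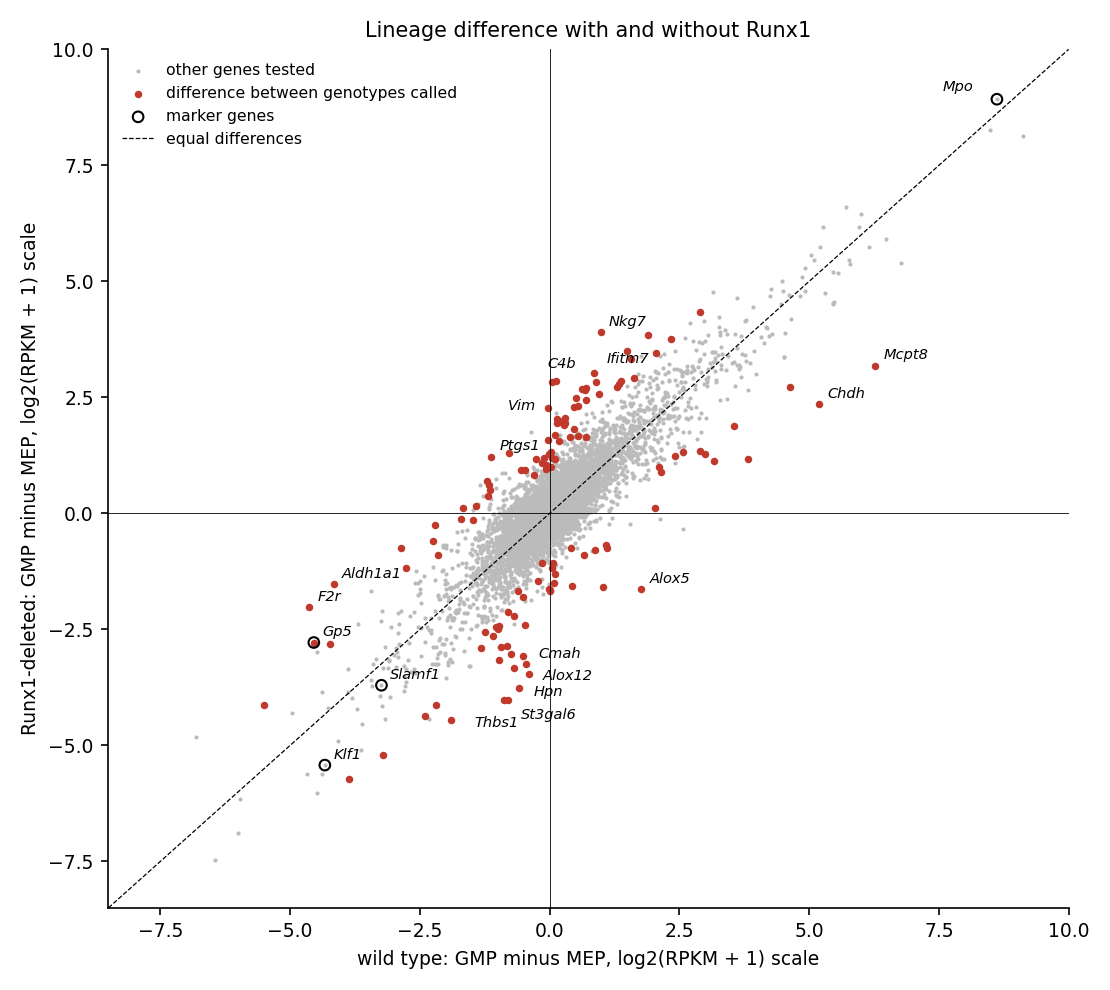
GMP minus MEP difference on the log2(RPKM + 1) scale in wild type (x axis) and without Runx1 (y axis) for the 10477 genes tested in the Runx1-deleted libraries. Most genes follow the dashed line of equal differences, red points are genes whose difference differed between the genotypes, and of the 4 circled markers Mpo, Klf1 and Slamf1 are not among them, whereas Gp5 is.

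The difference itself was tested with both genotypes in 1 model. The lineage difference was called different between Runx1-deleted and wild-type cells for 160 of 10783 genes (1.48%; 987 at an unadjusted p under 0.05). It was more positive without Runx1 for 83 and more negative for 77. For 70 genes it had the same sign and was larger without Runx1 (40 on the GMP side and 30 on the MEP side), for 53 it was smaller, and for 37 the sign was opposite. Leaving out 1 library moved the count between 29, without wild-type GMP library 2, and 417, without wild-type MEP library 2. The wild-type groups come from other lanes than the Runx1-deleted ones, apart from wild-type MEP library 2, so that no value within a lane could be had.

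Among the called genes, the largest losses of a lineage difference were those of Prss34 and Gzmb. Prss34 stood at 243 and 220 RPKM in wild-type GMP and at 4.36 and 2.07 in wild-type MEP, beside 0.434 and 0.303 in Runx1-deleted GMP and 0.110 and 0.0972 in Runx1-deleted MEP. Its difference of 5.84 in wild type was 0.31 without Runx1, a change of -5.53 (SE 0.37, limma, adjusted p = 8.23e-05). Gzmb, granzyme B, stood at 45.8 and 33.4 RPKM in wild-type GMP and at 0.296 and 0.214 in Runx1-deleted GMP, a change of -4.39. Mcpt8 kept a lineage difference of 3.18 without Runx1 beside 6.28 with it, with a level in GMP of 183 and 217 RPKM in wild type and of 9.29 and 8.50 without Runx1. Its change of -3.09 on the log2(RPKM + 1) scale was -1.34 and not called with a pseudocount of 0.1 (adjusted p = 0.449), and its MEP level without Runx1 was 0.0638 and 0.113 RPKM. Fcer1a, the IgE receptor chain of basophils and mast cells, named after its values were seen, differed by 2.63 in wild type and was at most 0.1065 RPKM without Runx1. Of the 25 mast cell, basophil and eosinophil genes tested in this model, 6 were called more negative (beside 0.714% of all genes). Epx, 1 of the 6, lost its call without Runx1-deleted GMP library 2, either Runx1-deleted MEP library or either wild-type GMP library. Its change in those fits was -1.56 to -2.23. Another 2, Cd200r3 and Cd200r4, were called more positive (beside 0.77%). Cd200r3 lost its call without either Runx1-deleted MEP library or wild-type GMP library 2 (adjusted p = 0.0637 to 0.0677). The start regions of Prss34 and of Nkg7, the genes with the largest change in each direction, are shown for that reason, with the same capitals.
Prss34, chr17:25298144-25298443, plus strand: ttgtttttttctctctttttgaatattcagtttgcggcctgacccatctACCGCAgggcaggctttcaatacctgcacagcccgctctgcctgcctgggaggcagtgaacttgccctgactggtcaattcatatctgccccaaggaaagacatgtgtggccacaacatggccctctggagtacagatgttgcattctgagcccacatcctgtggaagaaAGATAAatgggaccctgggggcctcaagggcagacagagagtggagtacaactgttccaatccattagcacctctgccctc
Nkg7, chr7:43436888-43437187, plus strand: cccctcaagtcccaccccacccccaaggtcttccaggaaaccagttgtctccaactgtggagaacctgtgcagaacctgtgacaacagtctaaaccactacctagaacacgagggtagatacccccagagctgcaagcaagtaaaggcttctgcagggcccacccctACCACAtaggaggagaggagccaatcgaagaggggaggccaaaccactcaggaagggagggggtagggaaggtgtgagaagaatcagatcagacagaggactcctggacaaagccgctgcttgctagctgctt
Prss34 held a RUNX match beginning 201 bases and a GATA match beginning 31 bases before the gene start, and Nkg7 a RUNX match beginning 83 bases before it.

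In the other direction, several genes differed more between the lineages without Runx1, with a lower level in MEP than in wild type. Nkg7, a granule membrane protein of cytotoxic and myeloid cells, stood at 178 and 122 RPKM in wild-type MEP and at 4.08 and 8.11 in Runx1-deleted MEP, beside 263 and 323 in wild-type GMP and 118 and 86.6 in Runx1-deleted GMP. Its change of 2.92 had an adjusted p of 0.008, and the call was lost without wild-type GMP library 1 (0.0638) or 2 (0.069) and with no filter on low values (0.068). Vim, vimentin of intermediate filaments, stood at 295 and 224 in wild-type MEP and at 55.8 and 62.7 without Runx1, while in GMP it was 310.5 and 202 in wild type and 256 and 325 without Runx1. Vim thus differed little between the wild-type lineages and by 2.27 without Runx1. Its call was lost without wild-type GMP library 2 (adjusted p = 0.0855) and without GMP library 2 or either MEP library of the Runx1-deleted cells (0.0647 to 0.084), and with no filter (0.0668).

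Several platelet and stem cell genes were closer between the lineages without Runx1. F2r, the thrombin receptor, stood at 3.70 and 3.29 RPKM in wild-type GMP and at 34.2 and 38.4 in Runx1-deleted GMP, beside 99.8 and 122 in wild-type MEP and 143 and 158 in Runx1-deleted MEP. Its lineage difference went from -4.63 to -2.02 (change 2.61, adjusted p = 0.00101). Gp5 went from -4.54 to -2.78 (change 1.76, adjusted p = 0.0102), and Treml1 from -4.24 to -2.81 (adjusted p = 0.0459). The call of Gp5 was lost without Runx1-deleted GMP library 2, either Runx1-deleted MEP library or wild-type GMP library 2 (adjusted p = 0.0543 to 0.0844), and that of Treml1 without any library but wild-type MEP library 2 (0.0562 to 0.304). Of the 26 platelet receptors tested in this model, 4 were called more positive (F2r, Gp5 and Treml1 among them) and none more negative. Among all genes tested in it, 0.77% were called more positive and 0.714% more negative. Of 36 stem and multipotent progenitor genes, 6 were more positive and none more negative, beside the same shares of all genes. Among these 6, Meis1 (-1.48 to -0.15) and Tek (-2.24 to -0.61) were closer without Runx1, whereas Hmga2 (0.31 to 2.07) went further apart. The calls of Meis1, Tek and Hmga2 were each lost without any 1 of the Runx1-deleted and wild-type GMP libraries and Runx1-deleted MEP libraries (adjusted p = 0.0746 to 0.243). Aldh1a1, an aldehyde dehydrogenase of stem cells, stood at 17.1 and 25 RPKM in wild-type MEP and at 2.16 and 1.8 in Runx1-deleted MEP, so that here the narrower difference came with a lower level in MEP. Its change of 2.63 was 2.10 and not called with a pseudocount of 0.1 (adjusted p = 0.105).

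Some other megakaryocyte genes went further apart. Thbs1, thrombospondin 1, stood at 1.71 and 2.02 RPKM in wild-type MEP and at 57.2 and 51.2 in Runx1-deleted MEP, beside 0.876 and 5.17 in Runx1-deleted GMP. Alox12 stood at 0.643 and 0.567 in wild-type MEP and at 25.2 and 19.1 without Runx1, a change of its lineage difference of -3.05 (adjusted p = 0.00971). The call of Thbs1 (-3.14, adjusted p = 0.0367) was lost without either Runx1-deleted MEP library, either wild-type GMP library or wild-type MEP library 1 (adjusted p = 0.0624 to 0.191). That of Alox12 was lost without either Runx1-deleted MEP library or wild-type GMP library (0.0508 to 0.0855). Neither was called with a pseudocount of 0.1 (0.354 for Thbs1 and 0.173 for Alox12) or with no filter on low values (0.205 and 0.0895), nor Thbs1 with quantile normalization or median centring (0.0536 and 0.0538). Hpn, the membrane serine protease hepsin, stood at 2.16 and 2.37 in wild-type MEP and at 36.0 and 42.6 without Runx1, and St3gal6, a sialyltransferase, at 0.949 and 0.954 and at 20.4 and 26.5. The calls of Hpn and St3gal6 held without any 1 of the 8 libraries. Of the heme genes, Cpox alone was called, with a lineage difference of -0.69 in wild type and -3.34 without Runx1 (change -2.65, adjusted p = 0.00419), a call lost without wild-type GMP library 2 (0.0645). Of the early erythroid genes, Rhag (-1.97) and Cldn13 (-1.96) were called more negative. Both calls were lost without Runx1-deleted GMP library 1, Runx1-deleted MEP library 1 or either wild-type GMP library, and that of Cldn13 also without Runx1-deleted GMP library 2 (adjusted p = 0.0574 to 0.136).

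**Figure D4:**
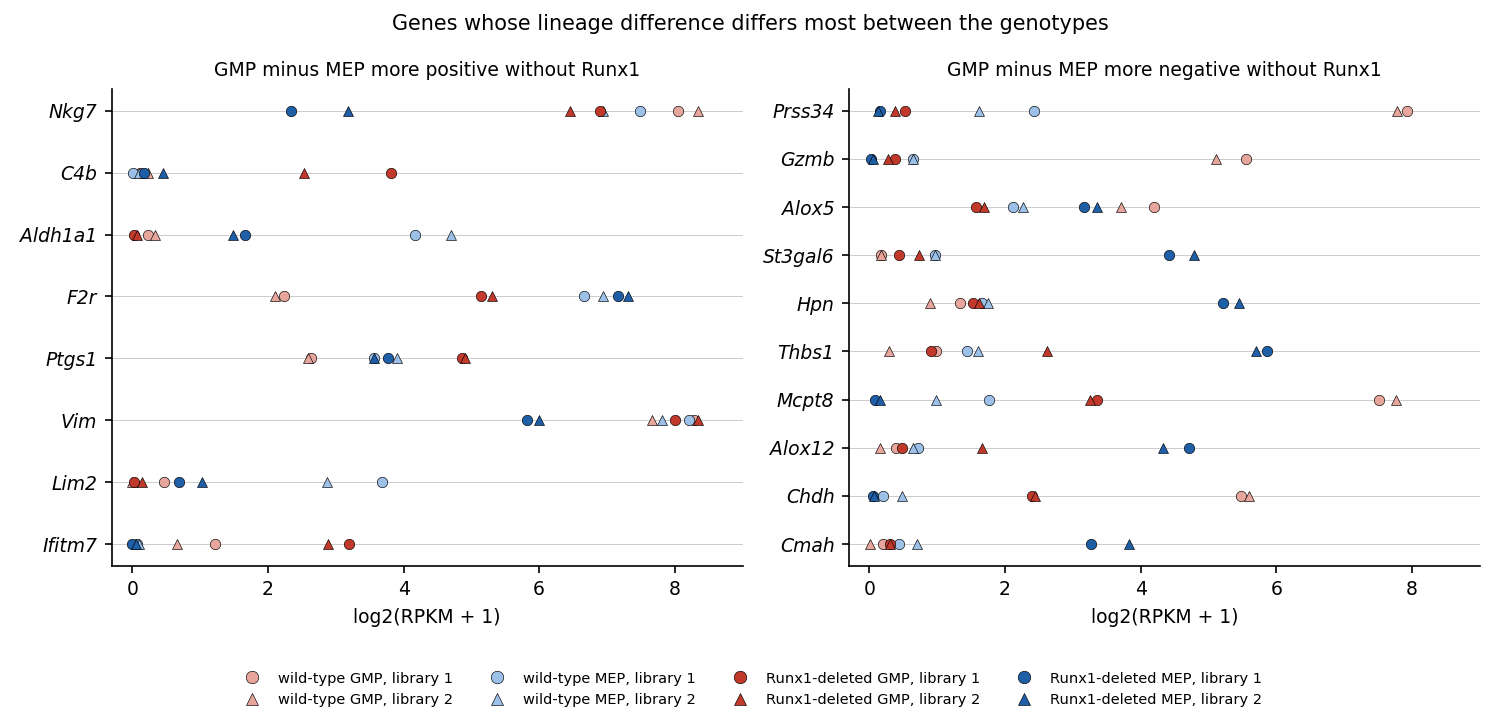
Expression, as log2(RPKM + 1) on the x axis, in each of the 8 GMP and MEP libraries for 18 genes with the largest changes of the lineage difference (rows), 8 more positive and 10 more negative without Runx1. Prss34, Gzmb and Mcpt8 are high in wild-type GMP alone, whereas St3gal6, Hpn, Thbs1, Alox12 and Cmah are high in Runx1-deleted MEP alone.

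Lipid mediator enzymes and receptors were among the 9 genes with opposite calls in the genotypes. Alox5, the lipoxygenase of leukotriene synthesis, stood at 17.4 and 12.1 RPKM in wild-type GMP and 3.32 and 3.79 in wild-type MEP, but at 1.97 and 2.22 in Runx1-deleted GMP and 7.94 and 9.26 in Runx1-deleted MEP. Its lineage difference went from 1.77 to -1.63 (change -3.40, adjusted p = 0.000889). Ptgs1 went from -1.12 to 1.22 (change 2.34, adjusted p = 0.0028), with 5.2 and 5.02 RPKM in wild-type GMP and 28.2 and 28.9 in Runx1-deleted GMP. Cd24a, a surface glycoprotein, went from 1.03 to -1.59, at 63.3 and 67.2 RPKM in wild-type MEP and 257 and 227 in Runx1-deleted MEP. Ptger4, a prostaglandin E receptor, went from 1.08 to -0.68. The others were Eya2, Atp6v0a1, Scarf1, Clec9a and Angpt1, of which the change of Angpt1 was not called (1.97, adjusted p = 0.0769). The called changes of Ptger4, Eya2, Atp6v0a1, Scarf1 and Clec9a were each lost without at least 5 of the 8 libraries in turn, and their Runx1-deleted differences without at least 1.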

How the data were processed

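Total RNA of sorted bone marrow progenitors was sequenced, with 2 libraries in each of the 5 groups of the series. The authors deposited 1 table with an RPKM value per gene and library and with p-values of their own comparisons. Per the submitters' processing notes, reads were set against mm9. An aligner or counter is not given in the sources used here. Per the labels' protocols, libraries were made with either of 2 kits, with no record of which library had which.

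RPKM are not counts, so log2(RPKM + 1) was tested with limma 3.58.1 (R 4.3.3; lmFit, and eBayes with trend) and p-values were adjusted by Benjamini-Hochberg over all tested genes, with calls under 0.05. The Runx1-deleted fit used 4 libraries (2 residual degrees of freedom) and kept a gene where 2 or more of them reached 1 RPKM. The wild-type fit used the 4 wild-type libraries, and the difference between the genotypes was the interaction in a fit of 8, both over genes that reached 1 RPKM in 2 or more of the 8. Steps in the RPKM values gave whole reads, within 0.01 read, for 19335 of 23240 genes, and 3904 were at 0 in every library. From these steps the libraries held 20.8 to 54.9 M reads. The deposited FDR-corrected p-value of the authors was under 0.05 for 1069 of the tested genes, and 1009 of these were called here. Of the fits, only that of the 4 Runx1-deleted libraries was tested on simulated data, with noise drawn independently for each library.

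The members and the 22 gene lists were chosen with earlier results of these data known. Genes were named by rule: the 12 largest called differences in each direction with no overlap and at least 10 RPKM, up to 4 members per list and direction by p, markers, RUNX and sort genes, and the 10 largest changes between genotypes in each direction at 5 RPKM or more. Further list members and the genes with opposite calls were named after their values were seen. In the Runx1-deleted groups, libraries with the same replicate number deviated in opposite directions across genes (r = -0.34). Library numbers 27 with 28 and 32 with 33 thus deviated together, and the main fit held no term for this pairing. Promoter windows come from RefSeq, and 8504 of the 10477 tested genes had one. Figures were drawn with matplotlib 3.10.9. The fifth group, Runx1-deleted CD16/32+ CD150+ cells, entered only alternative fits. A few genes that the rule names are not reported here.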

Additional observations from a re-analysis of the deposited data

Results flagged for a closer look

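For 160 genes the GMP minus MEP difference differed between Runx1-deleted and wild-type cells by the interaction term of limma at an adjusted p under 0.05. The 18 genes named among them were picked out by that test, and their values are Runx1-deleted minus wild-type differences of the log2(RPKM + 1) differences. On the positive side stood Nkg7 (2.92), C4b, a complement component (2.74), Aldh1a1 (2.63), F2r (2.61) and Ptgs1 (2.34). Vim (2.31), Lim2 (2.27) and Ifitm7, an interferon-induced membrane protein (2.16), followed. On the negative side stood Prss34 (-5.53), Gzmb (-4.39), Alox5 (-3.40), St3gal6 (-3.22), Hpn (-3.17), Thbs1 (-3.14) and Mcpt8 (-3.09). Alox12 (-3.05), Chdh, a choline dehydrogenase (-2.84), and Cmah, which acts on sialic acid (-2.79), followed. Of these 18 genes, 11 were called without any 1 of the 8 libraries, and 7 lost their call without at least 1. With a pseudocount of 0.1, 8 of the 18 lost their call: Mcpt8 (-1.34, adjusted p = 0.449), Thbs1 (0.354), Lim2 (0.313), Alox12 (0.173), Chdh (0.117), Aldh1a1 (0.105), Cmah (0.0618) and C4b (0.0618). In every setting tried, 7 of the 18 were called. Because wild-type GMP came from lanes 3 and 2 and Runx1-deleted GMP from lane 5, genotype and lane cannot be told apart in these values.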

How the results depend on the processing

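The 3344 called genes of the Runx1-deleted comparison became 2180 with a mean of at least 5 RPKM as filter and 1525 with a call rule of at least 2-fold, both stricter by construction. They ranged from 2187 to 4317 when 1 library was left out. With limma-voom on the whole reads, chosen after seeing the data, 3565 were called, and the other alternatives gave 2375 to 4333. With the replicate block 3258 genes were called, and with the block crossed to pair library numbers 27 with 28 and 32 with 33, 4333. The 160 genes differing between the genotypes became 69 with a pseudocount of 0.1 and 102 without the variance trend. Leaving out 1 library gave 29 to 417, the replicate block gave 222 and the remaining alternatives 130 to 199; the cause was not tested. The 1615 wild-type calls ranged from 718 to 2789 when 1 library was left out (1453 with the replicate block). The share of 99.2% became 96.3% over all 409 wild-type genes, with the 12 untested ones counted as not kept or with no filter (both chosen after seeing the data), 93.2% for wild-type differences of at least 2-fold, and 97.7% to 99% when 1 library was left out. Of 127 called genes among those named in the Runx1-deleted comparison, 103 were called in every setting, against 7 of the 20 picked for a difference between the genotypes. None of these named genes reversed its direction in any setting, whereas the balance of higher and lower calls did turn in some. The list counts without each library were computed after seeing the data. The shallowest library was a wild-type GMP library of 20.8 M reads, and 2 residual degrees of freedom limit each comparison within a genotype.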
